A study of Saccharomyces cerevisiae with 24 samples.

Results

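SEF1 encodes a zinc cluster transcription factor, a class of fungal DNA-binding proteins that recognise paired CGG triplets, and its transcript-level footprint was measured here in respiring cells of Saccharomyces cerevisiae. The comparison took the arrays of sef1 cells grown in YPGly and those of WT cells grown in YPGly, chosen by their titles, which gave 8 of the 24 arrays of the series. Values from sef1 and WT cells in YPD, and from a SEF1-VP16 strain, in which Sef1 of the same W303 background is fused to the VP16 activation domain, in YPGly and YPD, are set beside it. It addressed the question of which genes depend on Sef1 when glycerol is the carbon source. The sef1 strain is W303 MATa carrying sef1Δ::NatMX4, that is, the SEF1 open reading frame replaced by a drug resistance cassette, and it is a single strain. The WT strain, JYL03, is W303 MATa with SEF1 intact, and both share the his3, trp1, ura3, ade2, leu2 and can1 marker alleles of that background. Cells were pregrown overnight in the glucose medium YPD, diluted to 0.2 OD600 per ml in YPGly, a rich medium with glycerol, and harvested after 5.5 h at 30 °C, with 4 biological replicates per group.

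Glycerol enters metabolism through glycerol 3-phosphate and dihydroxyacetone phosphate, and its use requires the respiratory chain. Cells on glycerol lift glucose repression, a programme in which Mig1 and its relatives silence genes for other carbon sources and the hexose transporter genes answer to glucose through the Snf3 and Rgt2 sensors. The TCA cycle, the glyoxylate cycle and the 2-methylcitrate cycle, which breaks down propionyl-CoA in mitochondria, all run in such cells. Peaks of tagged Sef1 have been assigned to genes of these cycles, and the array comparison asks whether their transcripts change when Sef1 is absent.

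All levels below are log2 intensities minus the 75th percentile of the same array, so a level of 0 is that percentile, and all differences are sef1 minus WT in log2 units ± standard error from limma with adjusted p by Benjamini-Hochberg over 5641 tested probes. Calls required a change of 1.5-fold or more together with an adjusted p under 0.05. The 75th percentile ran from 7890 to 14627 intensity units on sef1 arrays and from 8657 to 11938 on WT arrays. Between 93.8% and 96.5% of probes were well above background on sef1 arrays and between 91.5% and 93.4% on WT arrays, so this share was higher on every sef1 array. Arrays correlated across probes with r of 0.994 to 0.999 within sef1, 0.990 to 0.997 within WT and 0.990 to 0.995 between the strains. The lowest value within WT was that of replicates 1 and 4. The sef1 arrays lay in the first row of one slide and the WT arrays in the second row of another, so strain, slide and row cannot be told apart in any value of this comparison. All 7 a-specific genes tested were well above background on all 8 arrays, and of the 4 alpha-specific genes, MF(ALPHA)1 and MF(ALPHA)2 stayed below the intensity minimum for testing, while STE3 and SAG1 were well above background on all 8 arrays too, so detection alone did not separate the mating types.

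Few probes were called between sef1 and WT in glycerol. Of the 5641 probes, 45 were called, which is 0.798%, and of these 23 were higher in sef1 (0.408%) and 22 were lower (0.39%). The adjusted p alone was passed by 226 probes (4.01%), 124 of them higher (2.2%) and 102 lower (1.81%). This wider count was less stable: it was 83 with the study's per-probe test, and leaving out 1 array gave 59 (without sef1 replicate 3) to 460 (without WT replicate 4), so genes named below as past the adjusted p but short of 1.5-fold rest on all 8 arrays. The median difference over all probes was 0.00, and 99.0% of probes differed by less than 1.5-fold. Differences too small or too uncertain to be called were more common: 1202 probes (21.3%) had an unadjusted p below 0.05. The 2 groups did not overlap for 789 probes (14%), all 45 called ones among them. Apart from SEF1 itself and its neighbour YBL065W, the largest change was 3.03-fold. With both counted, 9 of the called probes changed 2-fold or more, and 21 of the 45 were brighter than the median probe. With each array's median in place of its 75th percentile as the scale, 45 probes were again called, but 17 were higher and 28 lower. Without WT replicate 4 the count was 77, of which 42 were among the 45, and without sef1 replicate 3 it was 28, of which 26 were.

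**Figure D1:**
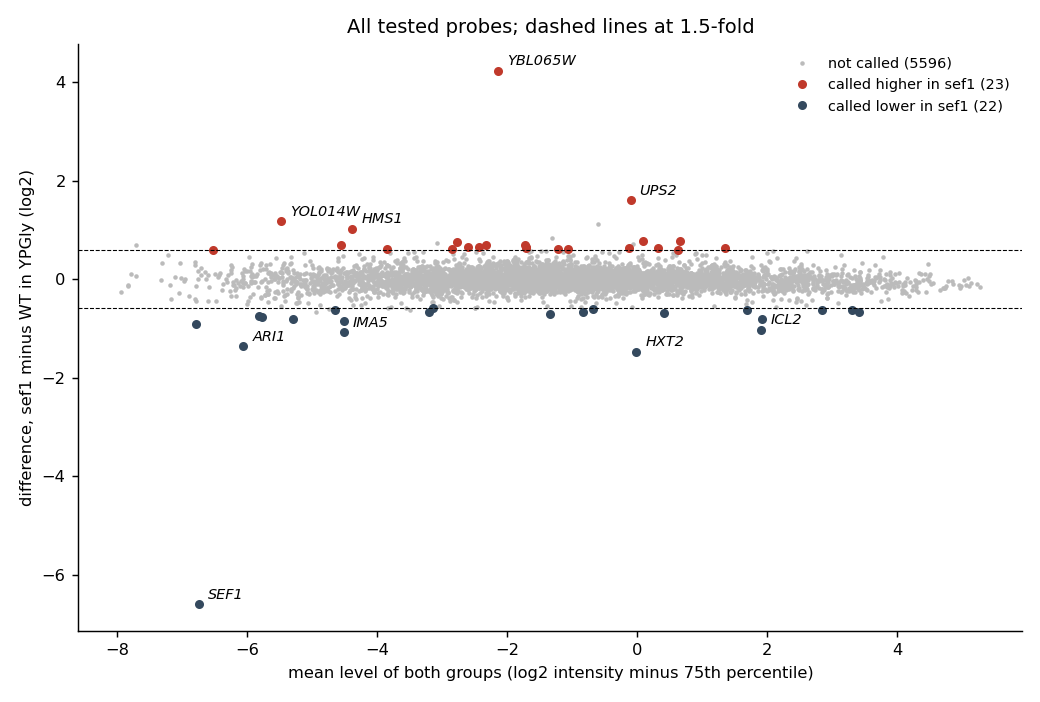
Difference between sef1 and WT in YPGly (vertical axis, log2) against the mean level of both groups (horizontal axis, log2 intensity minus the 75th percentile of the array), 1 point per tested probe. The 23 probes called higher and the 22 called lower lie at high and low levels alike, and SEF1 and YBL065W stand far from all others.

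The deleted gene was checked first. SEF1 (YBL066C, chromosome II) had levels of −9.72, −10.59, −10.31 and −9.52 on the sef1 arrays, against −3.04, −3.62, −3.36 and −3.75 on the WT arrays. The signal in sef1 did not stand well above background on a single array, while it did on all 4 WT arrays, so only a bound can be given, which put the deleted gene at least 32.9-fold lower in the mutant (adjusted p = 9.42e-08). On the other arrays SEF1 ran from −10.17 to −8.98 in sef1 in YPD, where all 4 arrays had it near background, and from −4.83 to −4.13 in WT in YPD. In SEF1-VP16 it ran from −5.47 to −5.08 in YPD and from −4.31 to −3.75 in YPGly. The array files also hold a probe for YBL065W, the systematic name that follows SEF1 on the same chromosome arm and on the other strand. It had levels of 0.01, 0.02, −0.12 and 0.01 in sef1, against −4.36, −4.22, −4.09 and −4.35 in WT. This was the largest rise of the comparison, at 4.23 ± 0.08 or 18.8-fold (adjusted p = 2.09e-10). Of the other neighbours, UBP13 (YBL067C), which encodes a ubiquitin-specific protease, rose by 0.53 ± 0.07 (adjusted p = 0.00368) and was short of 1.5-fold, and PRX1 (YBL064C), a mitochondrial peroxiredoxin gene, differed by −0.04 (95% interval −0.27 to 0.19). In YPD the differences were 3.62 ± 0.05 for YBL065W and 0.07 ± 0.07 for UBP13.

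**Figure D2:**
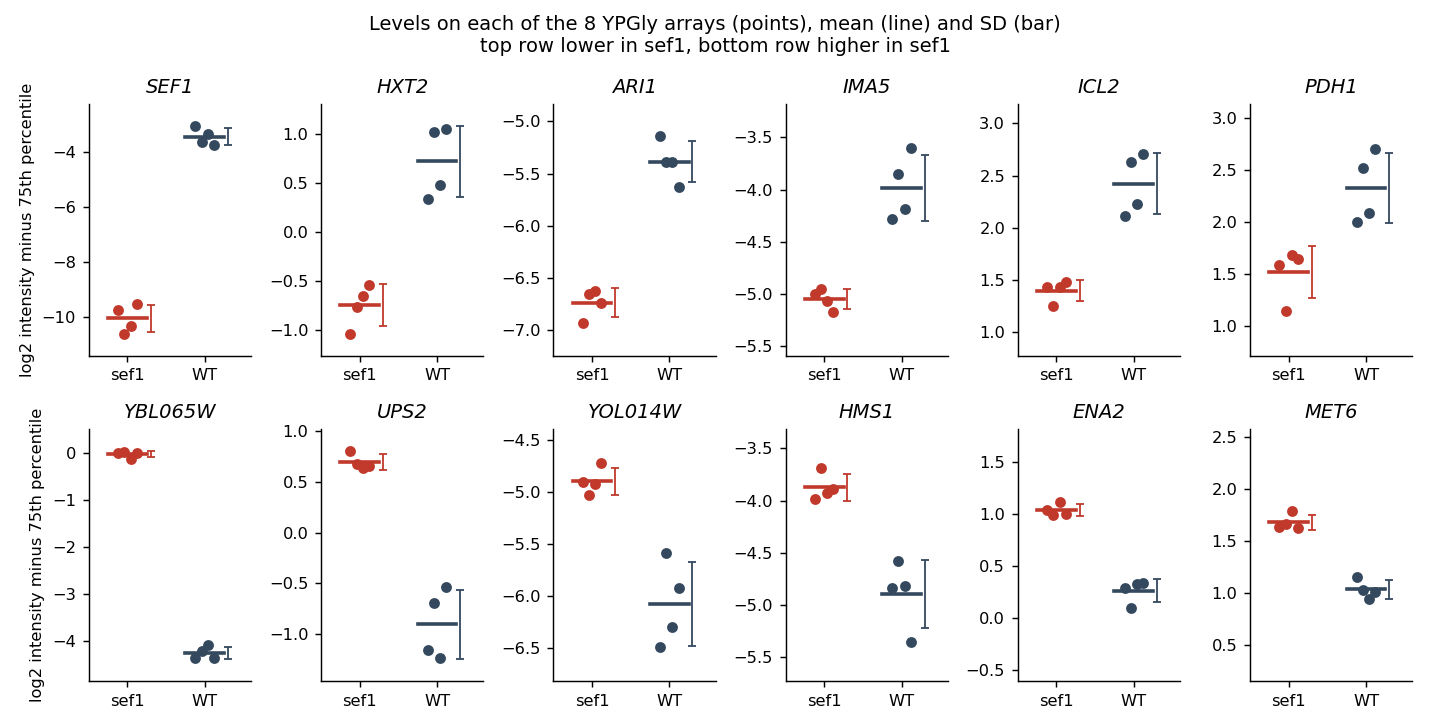
Levels (vertical axis, log2 intensity minus the 75th percentile of the array, own range in each panel) of 12 probes on the 4 sef1 and the 4 WT arrays in YPGly, with the mean as a line and the SD as a bar. The groups do not overlap in any panel. SEF1 in sef1 is at background, and WT arrays 2 and 4 lie together, apart from arrays 1 and 3, for HXT2, ICL2, PDH1 and UPS2.

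After SEF1, the largest fall was that of a hexose transporter gene. HXT2, a high-affinity glucose transporter gene, had levels of −1.04, −0.76, −0.65 and −0.54 in sef1, against 0.34, 1.02, 0.48 and 1.05 in WT. Every sef1 array lay well below every WT array, and HXT2 fell by 1.47 ± 0.17 or 2.77-fold (adjusted p = 0.00234). HXT4, a transporter gene induced by low glucose, averaged −4.93 ± 0.15 in sef1 and −4.08 ± 0.27 in WT (SD, n = 4 each) and fell by 0.84 ± 0.13 (adjusted p = 0.00854). HXT1, the low-affinity transporter gene, fell by 0.47 ± 0.09 (adjusted p = 0.0206). The other 11 of the 14 transporter and sensor genes tested did not pass and ran from −0.45 for HXT6 to 0.57 for HXT7, a pair of near-identical genes whose probes cannot be assumed to tell them apart. Past the adjusted p, all lower, were thus 3 of 14, beside 1.81% of all probes, and 1 of 14 in the study's per-probe test. The median of the list was −0.30, beside 0.00 over all probes, and 6 further members were below the intensity minimum for testing.

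Of the regulators of the same programme, MIG2 was called. MIG2, a zinc finger repressor gene that acts with MIG1, had levels of −6.40, −5.93, −6.25 and −6.08 in sef1, against −5.49, −4.90, −5.26 and −5.91 in WT. The lowest WT array, replicate 4, lay close to the highest sef1 array, and MIG2 fell by 0.78 ± 0.19 (adjusted p = 0.0462), a call that was lost when any sef1 array or WT replicate 1, 2 or 3 was left out. MTH1 and STD1, which encode partners of the Rgt1 repressor of HXT genes, fell by 0.58 ± 0.09 and 0.47 ± 0.10, HXK1 (hexokinase) fell by 0.44 ± 0.11 and SUC2 (invertase) fell by 0.38 ± 0.07, all past the adjusted p and short of 1.5-fold. In all, 5 of the 14 passed the adjusted p, each of them lower, beside 1.81% of all probes. The list's median was −0.23, beside 0.00 over all probes. Only 1 of the 14 passed the study's per-probe test. The remaining 9 of the 14 genes on this list did not pass, and they include MIG1 at −0.39 (adjusted p = 0.0583), HXK2 at 0.06 and SNF1 at 0.06.

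Of the 2-methylcitrate cycle genes, ICL2 and PDH1 were called lower in sef1, whereas those of the glyoxylate cycle were not shown to differ. ICL2, which encodes mitochondrial 2-methylisocitrate lyase, had levels of 1.43, 1.25, 1.43 and 1.48 in sef1, against 2.11, 2.63, 2.23 and 2.71 in WT. It fell by 1.03 ± 0.13 or 2.04-fold (adjusted p = 0.00368). PDH1, named as the 2-methylcitrate dehydratase gene of this cycle, had 1.58, 1.15, 1.68 and 1.64 in sef1, against 2.00, 2.52, 2.08 and 2.70 in WT, and fell by 0.81 ± 0.17 (adjusted p = 0.0288). The sef1 arrays were all below the WT arrays for both genes, and PDH1 lost its call when WT replicate 2 or any 1 sef1 array was left out. CIT3, the mitochondrial methylcitrate synthase gene, fell by 0.50 ± 0.10 (adjusted p = 0.0238) and was short of 1.5-fold. ICL1 (isocitrate lyase), MLS1 (malate synthase) and DAL7 (a second malate synthase) differed by 0.13, 0.25 and 0.20, and the 95% interval for ICL1 ran from −0.18 to 0.43. Of these 6 genes, 3 were lower past the adjusted p of limma, beside 1.81% of all probes. Only 1, ICL2, passed that of the study's per-probe test. The PDH1 call held in 10 of 18 alternative settings.

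Among 27 TCA cycle genes limma called none, and 2 passed the adjusted p, both lower in sef1, beside 1.81% of all probes. An unadjusted p below 0.05 was found for 7, beside 21.3% of all probes, and none passed the study's per-probe test after adjustment. The 2 that passed were CIT3 and IDH1, a subunit gene of NAD-dependent isocitrate dehydrogenase, which averaged 2.85 ± 0.11 in sef1 and 3.33 ± 0.19 in WT (SD, n = 4 each) and fell by 0.48 ± 0.10 or 1.39-fold (adjusted p = 0.027). In YPD the IDH1 difference was −0.74 ± 0.07 (adjusted p = 0.00132). IDH2, the partner subunit, differed by −0.27 in YPGly and by 0.44 in YPD, and its difference between the media passed the test (−0.71, adjusted p = 0.0138). Of the 27 genes, 24 had a value below 0, and the list's median was −0.17, beside 0.00 over all probes. The values ran from −0.55 for SHH4 to 0.46 for FUM1 (fumarase, 95% interval 0.04 to 0.88, adjusted p = 0.2). In the study's peak assignment, 10 of the 27 lay under a Sef1 peak seen in glycerol, and their median of −0.17 equalled that of the other 17 to 2 decimals; both genes that passed were among the 10.

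**Figure D3:**
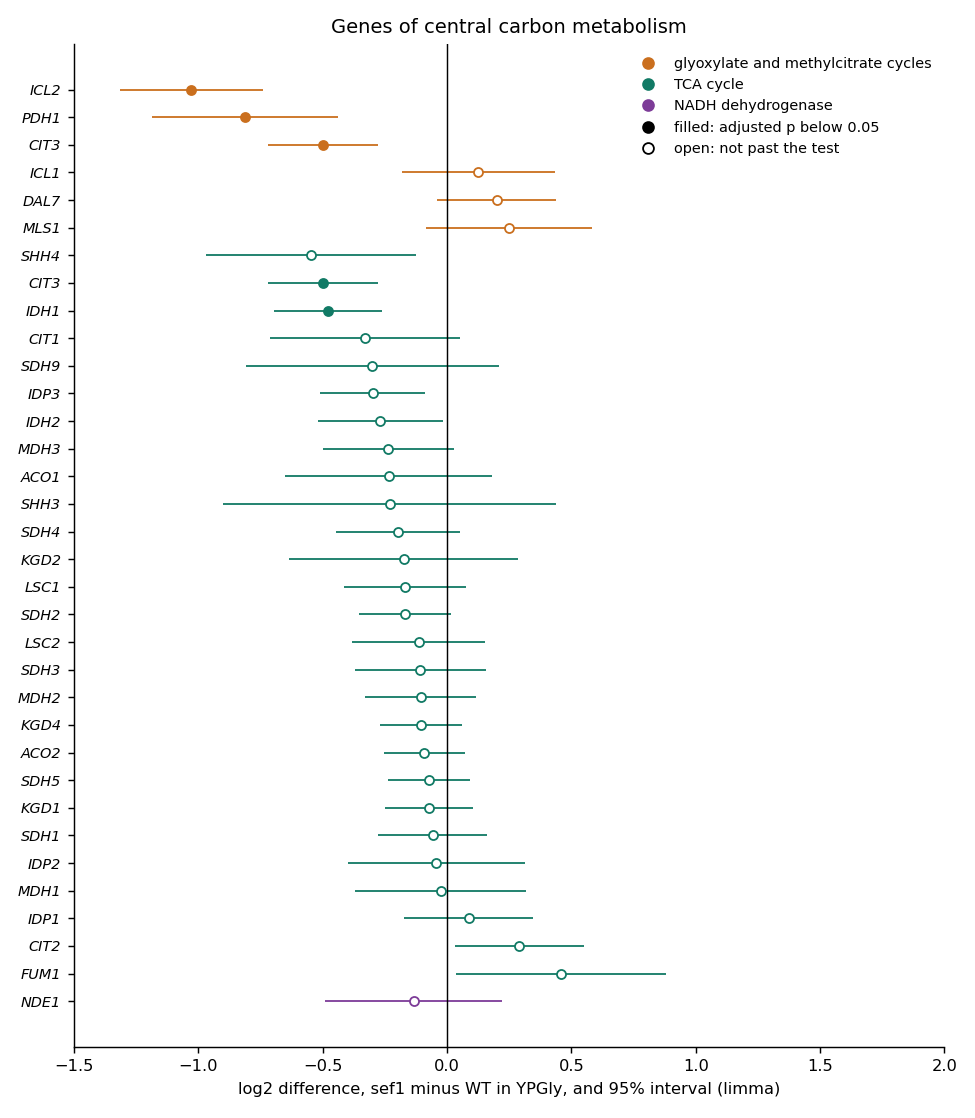
Difference between sef1 and WT in YPGly with its 95% interval (horizontal axis, log2) for genes of the glyoxylate and 2-methylcitrate cycles, the TCA cycle and NDE1, 1 row per gene; CIT3 belongs to both cycles and appears in both. Filled points passed the adjusted p, and they are ICL2, PDH1, CIT3 and IDH1.

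NDE1, which encodes the external NADH dehydrogenase of mitochondria, had levels of 2.64, 2.42, 3.10 and 3.11 in sef1, against 2.78, 3.18, 2.80 and 3.04 in WT. The groups overlapped, and the difference of −0.13 had a 95% interval of −0.49 to 0.22 (adjusted p = 0.698). In YPD, where NDE1 averaged 1.42 ± 0.09 in sef1 and 1.80 ± 0.19 in WT (SD, n = 4 each), the difference was −0.38 ± 0.09 (adjusted p = 0.0419). The difference between the media, 0.24 ± 0.20, did not pass the test (adjusted p = 0.605). No member of 3 lists passed the adjusted p in limma or in the study's per-probe test. These were 23 NADH dehydrogenase and respiratory chain genes, NDE1 among them, 16 nuclear ATP synthase genes and 13 genes of glycerol use and gluconeogenesis. In the same order, 1, 3 and 3 of them had an unadjusted p below 0.05, beside 21.3% of all probes. Their medians were −0.03, −0.10 and −0.04, and the widest value among the first 39 was −0.23. The 13 genes of the third list had a wider range, from −0.54 to 0.23.

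Transcripts made inside mitochondria were not shown to differ either. The 7 tested genes of the mitochondrial genome had a median of −0.34 and ran from −0.47 for COX1, a cytochrome c oxidase subunit gene, to 0.03 for OLI1, an ATP synthase subunit gene. None passed the adjusted p in limma, the lowest of which was 0.164, or in the study's per-probe test. Of the 7, 3 had an unadjusted p below 0.05, beside 21.3% of all probes, and the groups overlapped for all 7. These transcripts lack the poly(A) tails that the oligo-dT primers bind, so their signal on such arrays is not a measure of abundance in the usual way. Among activators of respiratory growth, HAP4, the glucose-regulated subunit gene of the Hap2/3/4/5 complex, was higher in sef1. It averaged 1.18 ± 0.04 in sef1 and 0.64 ± 0.07 in WT (SD, n = 4 each), a rise of 0.54 ± 0.06 or 1.46-fold (adjusted p = 0.00233), and it rose by 0.61 ± 0.07 in YPD. The other 14 activators, CAT8, ADR1, HAP1 and the RTG genes among them, did not pass.

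Some genes of formate and aldehyde enzymes were also among the lower probes. Of 20 tested alcohol and aldehyde oxidoreductase genes, only ARI1 passed the adjusted p, and the other 19 did not. ARI1, which encodes an NADPH-dependent aldehyde reductase, had levels of −6.94, −6.66, −6.63 and −6.74 in sef1, against −5.14, −5.39, −5.39 and −5.63 in WT. It fell by 1.36 ± 0.11 or 2.56-fold (adjusted p = 0.000215), or by 0.88 with normexp background correction. Its neighbour RCK1, a protein kinase gene of the oxidative stress response, had the lowest mean level in sef1 of the called probes other than SEF1, with −7.44, −7.36, −6.98 and −7.19 in sef1 and −6.60, −6.32, −6.13 and −6.32 in WT, and fell by 0.90 ± 0.12 (adjusted p = 0.00477). Its difference was −0.39 and not called when the background was corrected with normexp. FDH1 and FDH2, the formate dehydrogenase genes, are near-identical copies, and YPL276W follows FDH2 in the systematic names, so signal may be shared among the 3 probes. They averaged 3.08, 2.99 and 2.54 in sef1, against 3.75, 3.61 and 3.16 in WT, and fell by 0.66 ± 0.12, 0.62 ± 0.13 and 0.62 ± 0.12. All 3 lost their calls in the study's per-probe test, and when sef1 replicate 1 or 2 or WT replicate 2 or 3 was left out. GOR1, a glyoxylate reductase gene, fell by 0.63 ± 0.09 (adjusted p = 0.00807).

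The remaining lower probes belonged to varied functions. IMA5, an isomaltase gene, had levels of −5.00, −4.96, −5.07 and −5.17 in sef1, against −4.29, −3.85, −4.19 and −3.60 in WT, and fell by 1.07 ± 0.14 or 2.1-fold (adjusted p = 0.00373). The 4 other isomaltase genes, IMA1 to IMA4, differed by −0.23 to −0.29 and did not pass. Of 11 maltose and isomaltose genes tested, MAL33 was the only 1 higher past the adjusted p, at 0.37. PIC2, which encodes a mitochondrial phosphate and copper carrier, fell by 0.68 ± 0.10 (adjusted p = 0.00863), with levels of 0.19, 0.20, −0.06 and −0.04 in sef1 and 0.88, 0.74, 0.89 and 0.48 in WT. PEX9, an import receptor gene of peroxisomes, fell by 0.62 ± 0.08 (adjusted p = 0.00513) and TSA2, a cytoplasmic thioredoxin peroxidase gene, by 0.66 ± 0.15 (adjusted p = 0.0394), a call that held in 1 of the 8 fits that left out 1 array. YNL234W, LDS2 (spore wall), SDD1, ECM8, YKR075C and ASG7 (an a-specific gene) fell by 0.59 to 0.82, with adjusted p from 0.00706 to 0.0184. Genes of peroxisomal fatty acid oxidation passed the adjusted p without reaching 1.5-fold: of 21 tested, POX1, FOX2, POT1, SPS19, DCI1 and ECI1 fell by 0.37 to 0.56, which is 6 of 21 beside 1.81% of all probes, and no member was higher past the test. In the study's per-probe test 4 of the 21 passed. The list's median was −0.14, and the carnitine acetyltransferase genes YAT1 and YAT2 had 0.30 and 0.18 (adjusted p = 0.0766 and 0.379).

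Among the higher probes, UPS2 had the largest change after YBL065W. UPS2 encodes an intermembrane space protein that, with Mdm35, moves phosphatidylserine between the mitochondrial membranes. Its levels were 0.81, 0.68, 0.64 and 0.66 in sef1, against −1.15, −0.70, −1.23 and −0.53 in WT. It rose by 1.6 ± 0.14 or 3.03-fold (adjusted p = 0.000574), and in YPD by 1.88 ± 0.06 (adjusted p = 7.16e-08). None of the other 10 genes of the UPS family and of mitochondrial phospholipid synthesis passed in YPGly, and they ran from −0.27 for UPS3 to 0.02 for PSD1.

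Several genes of methionine and sulfur metabolism were higher in sef1. Of 23 tested, 3 were called, MET2 (homoserine acetyltransferase), MET6 (methionine synthase) and SAM2 (S-adenosylmethionine synthetase), and MUP1, the methionine permease gene, also passed the adjusted p. These 3 calls stand beside 0.408% of all probes called higher, the 4 past the adjusted p beside 2.2%, and 2 of the 23 passed the study's per-probe test. MET6 had levels of 1.63, 1.66, 1.79 and 1.62 in sef1, against 1.15, 1.03, 0.94 and 1.01 in WT, and rose by 0.64 ± 0.07 (adjusted p = 0.00196). MET2 and SAM2 rose by 0.66 ± 0.10 and 0.64 ± 0.13, and MUP1 by 0.42 ± 0.09. No member was lower past the test, 20 of the 23 had a value above 0, and the median was 0.24, beside 0.00 over all probes. SAM1, the second synthetase gene, was at 0.71 ± 0.18 but did not pass (adjusted p = 0.0583), and its WT arrays were spread from −0.96 to 0.01. Outside this list, SOA1, a gene for uptake of oxidised sulfur compounds, rose by 0.61 ± 0.11 and IRC7, a cysteine desulfhydrase gene, by 0.61 ± 0.15 (adjusted p = 0.02 and 0.0478). The IRC7 call held in 4 of 18 alternative settings.

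The other higher probes had varied functions. ENA1 and ENA2, near-identical neighbouring genes of plasma membrane sodium pumps, rose by 0.77 ± 0.08 and 0.77 ± 0.07; ENA2 had 1.05, 0.99, 1.12 and 1.00 in sef1, against 0.29, 0.10, 0.33 and 0.34 in WT (adjusted p = 0.000628). The ENA1 value rested on leaving out 1 outlier spot: with such spots kept it was 0.12 and not called, while ENA2 stayed called. HMS1, a gene for a helix-loop-helix protein that promotes pseudohyphal growth, had −3.99, −3.69, −3.92 and −3.89 in sef1, against −4.84, −4.58, −4.83 and −5.36 in WT, and rose by 1.03 ± 0.14 or 2.04-fold (adjusted p = 0.00616). Of 18 filamentous growth and flocculation genes, the ammonium permease genes MEP1 and MEP3 and the regulator STE12 also passed, with rises of 0.46, 0.35 and 0.28, and no member was lower past the test. These 4 of 18 stand beside 2.2% of all probes higher past the adjusted p, and 1 of the 18 passed the study's per-probe test. FLO11, the flocculin gene, was at −0.11 (95% interval −0.55 to 0.32). AQY1, a water channel gene expressed in spores, rose by 0.75 ± 0.18 with an adjusted p of 0.0462, and its highest WT array, at −2.64, lay close to its lowest sef1 array, at −2.55. The calls of AQY1, DBP2 and CRR1 each held in 2 of the 8 fits that left out 1 array.

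IMD2 and IMD4, genes of IMP dehydrogenase in guanine nucleotide synthesis, rose by 0.69 ± 0.13 and 0.70 ± 0.13 (adjusted p = 0.0224 and 0.02). They belong to a family of close copies. CYB5 (cytochrome b5) and DBP2 (an RNA helicase), whose names follow each other on chromosome XIV, rose by 0.62 ± 0.07 and 0.70 ± 0.16. YOL014W had −4.91, −5.03, −4.93 and −4.72 in sef1, against −6.50, −5.59, −6.31 and −5.92 in WT, and rose by 1.18 ± 0.17 or 2.27-fold (adjusted p = 0.00706), or by 0.68 with normexp. DLD3 (D-lactate dehydrogenase), ANT1 (peroxisomal adenine nucleotide carrier), MNN4 (mannosylphosphate transfer), NCA3, IZH4 (zinc homeostasis), CRR1 (spore wall) and PGU1 (endopolygalacturonase) rose by 0.59 to 0.65. PGU1 was dim, with a mean of 135 intensity units in sef1 and 88.2 in WT, and at 0.18 it was not called with normexp. ASG7 and PGU1, at −0.59 and 0.59, were just inside the 1.5-fold limit, and MIP6 and SSB1, at −0.58 and 0.58, just outside it.

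Iron genes were examined because Sef1 relatives control iron uptake in Candida albicans. None of 32 tested genes of the iron regulon passed the adjusted p of limma or of the study's per-probe test in YPGly. Of the 32, 8 had an unadjusted p below 0.05, beside 21.3% of all probes, and the list's median was 0.08. The largest difference of this list came with a wide spread among WT arrays. FRE1, a ferric and cupric reductase gene, had −1.20, −1.15, −0.59 and −0.60 in sef1, against −2.40, −1.54, −2.52 and −0.45 in WT, so the groups overlapped at a difference of 0.84 ± 0.39 (adjusted p = 0.243). FET4, a low-affinity iron transporter gene, was at 0.62 ± 0.18 (adjusted p = 0.0803). In all, 9 probes differed by 1.5-fold or more without being called, and the groups overlapped for 8 of them.

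**Figure D4:**
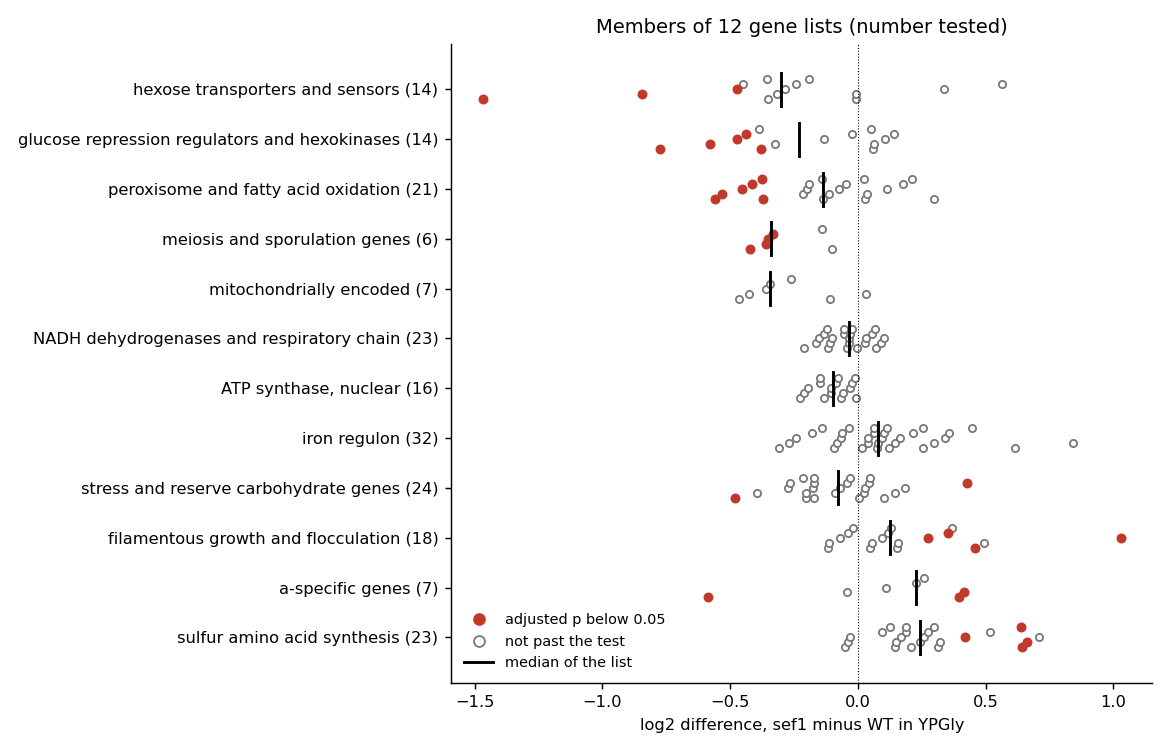
Differences between sef1 and WT in YPGly (horizontal axis, log2) of the members of 12 gene lists, with the number tested in brackets. Filled points passed the adjusted p and black bars are list medians. Filled points lie below 0 for hexose transport, glucose repression, peroxisome and meiosis genes and above 0 for filamentous growth and sulfur genes. For stress and a-specific genes they lie on both sides of 0.

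Among genes of cell identity, the pheromone genes MFA1 and MFA2 rose by 0.40 ± 0.08 and 0.41 ± 0.08 while ASG7 fell by 0.59 ± 0.11, and the median over 7 a-specific genes was 0.23. None of these 7 passed the adjusted p of the study's per-probe test. FUS1, a gene of mating cell fusion, fell by 0.58 ± 0.09 and FUS3, the mating kinase gene, rose by 0.27 ± 0.06. Of 6 tested meiosis and sporulation genes, 4 passed with falls of 0.33 to 0.42, beside 1.81% of all probes lower past the adjusted p, among them IME1, the inducer of meiosis, at −0.42 ± 0.08 (adjusted p = 0.0239), and 1 of the 6 passed the study's per-probe test. The 6 marker loci of the W303 background, 17 heat shock and chaperone genes and 9 lysine synthesis genes were also looked at. None passed the adjusted p in limma or in the study's per-probe test. In the same order, 1, 1 and 2 members had an unadjusted p below 0.05, beside 21.3% of all probes. Among 24 stress and reserve carbohydrate genes, SPI1 rose by 0.43 and GLG2 fell by 0.48, and among 11 arginine synthesis genes, ARG1 rose by 0.43. MRK1, a kinase gene of the GSK-3 family, rose by 0.56 ± 0.08 and PDR5, a multidrug pump gene, by 0.45 ± 0.10. Among 10 stationary phase genes, SNZ2 fell by 0.32 ± 0.07 (adjusted p = 0.0399), and the other 9 did not pass.

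The called probes were set against the study's list of genes with a peak of tagged Sef1, which came from other cells and another assay. Of 348 tested genes under a peak seen in glycerol, 11 were called, which is 3.16% and compares with 0.798% of all probes, and 5 were higher and 6 lower. The lower ones were IMA5, ICL2, PDH1, MIG2, PIC2 and YKR075C, and the higher ones UPS2, HMS1, AQY1, MNN4 and SOA1. The median over the 348 was −0.02. Of 229 tested genes with a peak in glucose only, none was called by limma, and 1 higher and 2 lower ones passed the adjusted p. Of the 229, 47 had an unadjusted p below 0.05, beside 21.3% of all probes, and 1 passed the adjusted p of the study's per-probe test. The other 34 called probes, SEF1, HXT2, ARI1, HXT4 and MET6 among them, had no assigned peak in glycerol. Position along the chromosome showed pairs: 10 of the 45 called probes stood next to another called probe, in the pairs SEF1 and YBL065W, ENA1 and ENA2, ARI1 and RCK1, CYB5 and DBP2, and FDH2 and YPL276W. Of 76 tested probes next to a called probe, these 10 were called (13.2%), beside 0.798% of all probes. The pairs include the deleted locus, the near-identical ENA1 and ENA2, and FDH2 and YPL276W, whose probes may share signal.

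The same deletion was compared with WT in YPD on 8 other arrays, all on 1 slide. There 38 probes were called (0.674%) and 460 passed the adjusted p (8.15%). Called in both media were 5 probes, all in the same direction, which is 11.1% of the 45 and 13.2% of the 38: SEF1, YBL065W, UPS2, CYB5 and IMD2. Of the 45 called in YPGly, 11 passed the adjusted p in YPD (24.4%), all in the same direction, HXT2 and IMA5 among them with falls of 0.40 ± 0.09 and 0.49 ± 0.12. The remaining 34 did not pass in YPD, and 25 of those had the same sign.

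**Figure D5:**
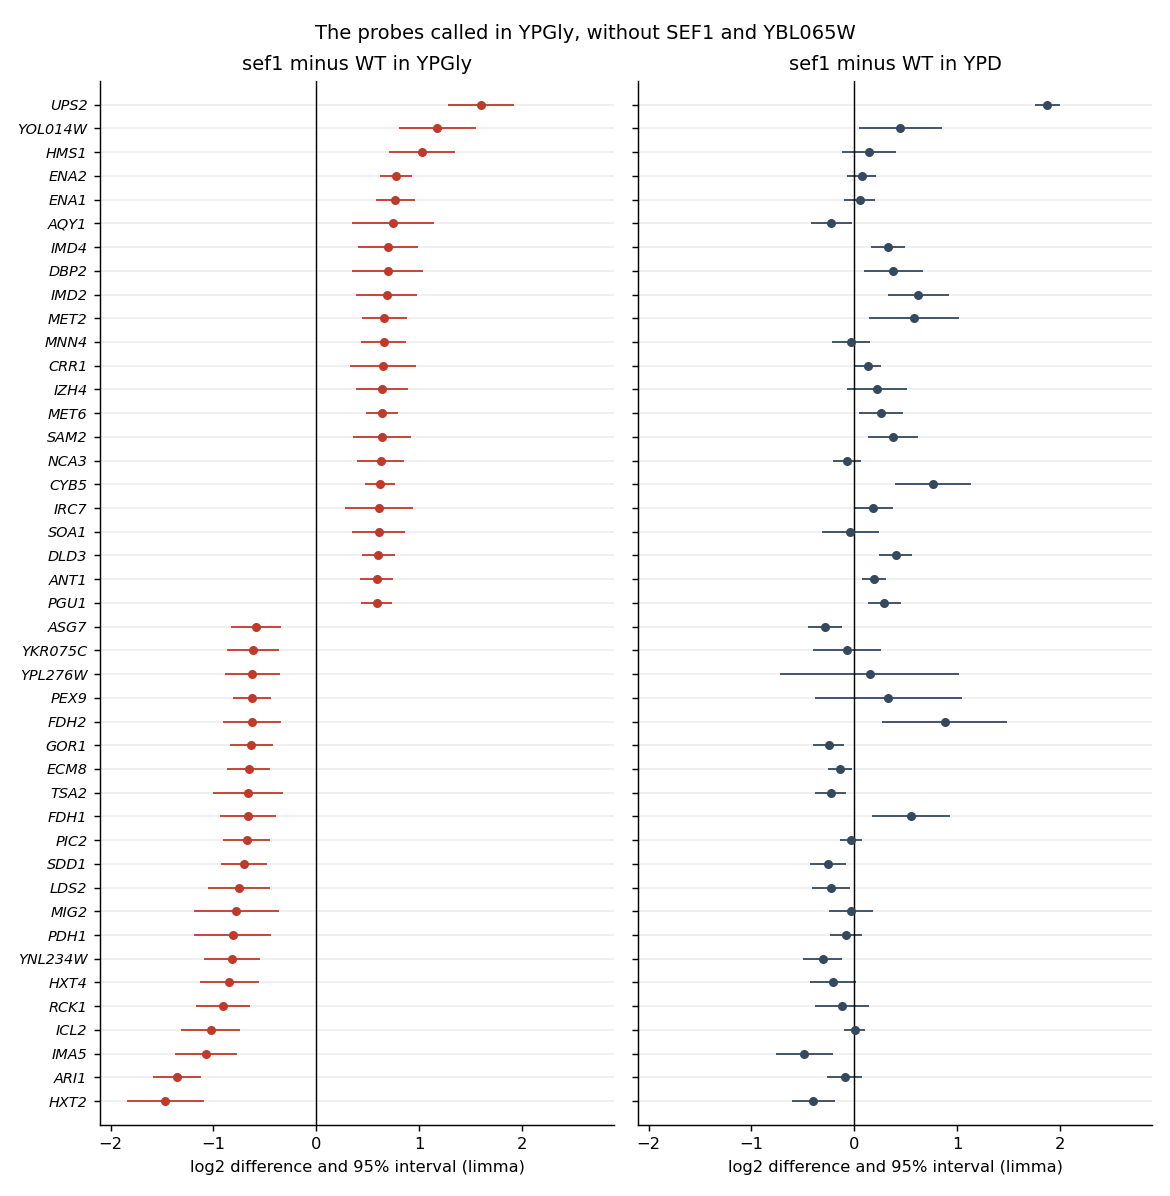
Differences between sef1 and WT with 95% intervals (horizontal axes, log2) for the 43 probes called in YPGly other than SEF1 and YBL065W, in YPGly (left) and in YPD (right), where other arrays were used. UPS2 is higher in both media, whereas ARI1, ICL2, ENA1 and ENA2 are near 0 in YPD.

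Whether the effect of the deletion depended on the medium was tested as the difference in YPGly minus that in YPD over 16 arrays. The test called 50 probes (0.886%), 28 lower and 22 higher, of which 15 were also called in YPGly, a choice that used the same YPGly arrays. Among the clearest were ARI1, at −0.09 ± 0.08 in YPD against a fall of 1.36 in YPGly, and ICL2, at 0.00 ± 0.05 in YPD against a fall of 1.03. Their differences between media were −1.26 ± 0.14 and −1.03 ± 0.15 (adjusted p = 0.000232 and 0.00232). ENA1 and ENA2 differed by 0.71 ± 0.11 and 0.70 ± 0.09 between the media. TPO2, a polyamine transporter gene, fell by 0.30 ± 0.07 in YPGly and rose by 0.72 ± 0.09 in YPD (adjusted p of the difference 0.000232). The G1 cyclin genes CLN1, CLN2 and CLN3, named after their values were seen, had −0.16, −0.36 and −0.57 in YPGly and 0.44, 0.26 and 0.27 in YPD, with differences between media of −0.61, −0.62 and −0.83. FDH1 and FDH2 had the opposite sign in YPD, but there they were close to background, on 3 of 4 sef1 arrays well above it, and their YPD differences did not pass the test. Since the comparison in YPGly crossed slides and that in YPD did not, medium and slide cannot be told apart in these differences.

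The slide of sef1 in YPGly also held a strain that carried SEF1-VP16. The comparison of sef1 with SEF1-VP16 in YPGly shared the sef1 arrays, and that of SEF1-VP16 with WT shared the WT arrays, so the values below are not independent of those above. That of SEF1-VP16 with WT also crossed the same slides as that of sef1 with WT, so strain and slide cannot be told apart in it. ICL2 was at −2.72 ± 0.07 in sef1 relative to SEF1-VP16 and at 1.70 ± 0.13 in SEF1-VP16 relative to WT. For HXT2 the same differences were −2.79 ± 0.16 and 1.32 ± 0.20, for IMA5 −2.52 ± 0.15 and 1.45 ± 0.19, and for ARI1 −2.12 ± 0.09 and 0.77 ± 0.11. PDH1 had −2.12 ± 0.13 and 1.31 ± 0.16. All of these passed the adjusted p. RCK1 was at −1.0 ± 0.20 in sef1 relative to SEF1-VP16, while its 0.09 ± 0.21 in SEF1-VP16 relative to WT did not pass. In YPD, where SEF1-VP16 lay on another slide than WT and sef1, its mean was the lowest for HXT2, IMA5 and RCK1. HXT2 averaged 3.29 in WT, 2.89 in sef1 and 2.62 in SEF1-VP16. IMA5 had −2.98, −3.47 and −4.04 in the same order, and RCK1 −4.10, −4.22 and −4.76. For ICL2, PDH1 and ARI1 the SEF1-VP16 mean was the highest in YPD, at 0.14, −0.74 and −0.42.

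For the higher probes the order of the strains in YPGly varied. ENA2 was at 0.72 ± 0.06 in sef1 relative to SEF1-VP16 and at 0.05 ± 0.07 in SEF1-VP16 relative to WT. CYB5 was at 1.38 ± 0.12 and −0.76 ± 0.12, so its level was highest in sef1 and lowest in SEF1-VP16. UPS2 had levels of 0.81, 0.68, 0.64 and 0.66 in sef1, 1.38, 1.53, 1.38 and 1.55 in SEF1-VP16, and −1.15, −0.70, −1.23 and −0.53 in WT, so both altered strains lay above WT. YBL065W averaged −0.02 in sef1, −1.39 in SEF1-VP16 and −4.25 in WT. HAP4 was likewise at −0.72 ± 0.06 in sef1 relative to SEF1-VP16 and at 1.26 ± 0.07 in SEF1-VP16 relative to WT. The altered strains shared a slide in YPGly and WT lay on another. In YPD, where WT and sef1 shared a slide, YBL065W averaged −1.40 in sef1, −5.34 in SEF1-VP16 and −5.02 in WT. UPS2 averaged −0.42, 1.07 and −2.30 there, in the same order of strains.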

How the data were processed

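Transcript levels were measured on one-colour Agilent yeast arrays of 4 biological replicates per group. The authors deposited 1 scanner table per array, whose values are spot intensities with background already subtracted by Agilent Feature Extraction 10.5.1.1, and a table of log2 values scaled to the 75th percentile, used here as an alternative. After removal of spots marked as outliers, processed intensities were converted to log2, averaged over the 2 spots of each of 6256 probes and reduced by the array's 75th percentile. Probes with a group mean of 200 intensity units or more, in any of the 6 groups, were tested, after the study's methods; these were 5641 (90.2%). Each group pair was compared over its 8 arrays with limma 3.58.1 in R 4.3.3 and Benjamini-Hochberg adjustment, with calls at an adjusted p below 0.05 and 1.5-fold. The study used an unpaired t-test with the same limits, which was also run here and is called the study's per-probe test. The fits were tested on simulated data.

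For a group in which every array had the probe near background, the fold is a bound. It sets the brighter group's mean against the dim group's mean after raising each dim value to that array's lowest level well above background. Names came from the files and from RefSeq's yeast gene table (assembly R64), in which 5756 probes matched. Named in the text were SEF1 and its neighbours, every called probe, most list members past the adjusted p and the ends of a list's range. Other genes were named after their values were seen. The comparison, gene lists and named genes were chosen with earlier results of these data known. The slide and row of each array were read from the file headers. The number of arrays limits the precision. Leaving out arrays and other scales, filters and tests were tried as alternatives.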

Additional observations from a re-analysis of the deposited data

Results flagged for a closer look

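For 7 of 165 groups of 4 arrays looked at, over 83 probes, 1 array stood apart from the other 3, and chance alone gives about 1 in 20. In sef1 these were MET2 on replicate 1 (−2.35, others −2.05 to −2.0), DBP2 on replicate 1 (−2.16, others −1.94 to −1.91) and YBL065W on replicate 3 (−0.12, others 0.01 to 0.02). In WT they were YNL234W on replicate 1 (−4.51, others −5.06 to −4.97), DCI1 on replicate 1 (−0.81, others −0.53 to −0.51), NCA3 on replicate 1 (0.20, others −0.09 to −0.05) and DLD3 on replicate 4 (−1.23, others −1.42 to −1.39).

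For 24 of the 83 probes the sef1 minus WT difference was not the same in both media by the test of that difference (adjusted p below 0.05, YPGly minus YPD in log2 units). Those lower in YPGly were FDH2 (−1.5), ARI1 (−1.26), FDH1 (−1.21), HXT2 (−1.07), ICL2 (−1.03), TPO2 (−1.02), RCK1 (−0.78), PIC2 (−0.64), FUS1 (−0.61), DCI1 (−0.58) and ECM8 (−0.51). Those higher in YPGly were ANT1 (0.40), UBP13 (0.46), MFA2 (0.49), MEP1 (0.56), YBL065W (0.61), MFA1 (0.67), MNN4 (0.69), NCA3 (0.70), ENA2 (0.70), ENA1 (0.71), MRK1 (0.83), HMS1 (0.89) and AQY1 (0.97). SEF1 itself is left out, since it was at background in sef1 in both media. Over all 5641 tested probes, 115 (2.04%) passed the same test. Apart from NDE1 and PRX1, the 83 probes were chosen by their adjusted p on the same YPGly arrays, which favours a higher share among them. Medium and slide cannot be told apart in these differences.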

How the results depend on the processing

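All 45 called probes kept their sign under each of 18 alternative settings, 10 were called under every one (SEF1, HXT2, ARI1, IMA5, ICL2, ECM8, MET6, ENA2, UPS2 and YBL065W) and 19 in all 8 fits that left out 1 array. The unpaired t-test called 17 probes, 9 higher and 8 lower. Without a fold minimum 226 were called, 124 higher and 102 lower, and with a 2-fold minimum 9, 4 higher and 5 lower. The other settings gave 36 to 57 calls. Leaving out 1 array gave 28 to 77 calls, 13 to 38 higher and 15 to 39 lower; the extremes came without sef1 replicate 3 (28) and WT replicate 4 (77). By the adjusted p alone, 226 probes became 83 with the unpaired t-test, 67 with the replicate block, 370 with quantile normalization, 592 with all 24 arrays in 1 fit and 59 to 460 when 1 array was left out. Values of the series table gave the same 45. PRX1, at −0.04, turned to 0.0203 with quantile normalization and ran from −0.151 to 0.00793 when 1 array was left out. For the dependence on the medium, 50 probes became 115 without a fold minimum and 28 to 63 when 1 array was left out. By that step, added after seeing the data, the companion counts ran from 20 to 53 for sef1 against WT in YPD (38 with all arrays). No pairing by replicate number was evident: the deviations of same-numbered sef1 and WT arrays correlated with −0.12, −0.44, −0.12 and 0.15. Those of differently numbered arrays ran from −0.40 to 0.55. Whether same-numbered cultures were handled together cannot be read from these values. With the replicate block 40 probes were called, all among the 45, and 55 for the dependence on the medium. The normexp alternative used the median spot signal, since no mean signal was in the files used. Group and slide cannot be told apart, dim probes are the least certain, and 4 arrays per group limit small changes.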

Other observations

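Across tested probes the WT arrays in YPGly differed in how alike they were. Replicates 1 and 3 correlated with r = 0.996 and replicates 2 and 4 with r = 0.997, against 0.995 for replicates 2 and 3, 0.993 for 1 and 2, 0.992 for 3 and 4 and 0.990 for 1 and 4. Replicates 2 and 4 were both above or both below replicates 1 and 3 for 56.2% of tested probes and for 24 of the 45 called ones (53.3%). The probes with the widest WT spread included FRE7 and FRE1, reductase genes for copper and iron, FIT2 and FIT3, cell wall mannoproteins of iron uptake, SIT1, a siderophore transporter gene, and FET3, the multicopper oxidase gene of iron uptake. FRE7 had −0.36, −0.25, 0.20 and 0.21 in sef1, against −1.80, −0.60, −2.43 and 0.15 in WT, with an SD of 0.30 in sef1 and 1.17 in WT. FET3 had an SD of 0.45 in sef1 and 0.78 in WT, and in WT replicate 4 it was at 0.12 with the other replicates between −1.65 and −1.13. SSA3, a heat shock chaperone gene, had 2.30, 2.17, 2.34 and 2.22 in sef1, against 2.91, 2.10, 3.14 and 1.42 in WT, so replicates 2 and 4 were here the lower WT pair. The cause of this spread was not tested.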
